A study of Mus musculus with 4 samples.

Results

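Genes that make, sense and break down prostaglandins were followed in sorted fibro-adipogenic progenitors (FAPs), the stromal progenitors of skeletal muscle. The set held 10 gene symbols of the 24421 in the table: the cyclooxygenases Ptgs1 and Ptgs2, the transcript Ptgs2os beside Ptgs2, the terminal synthases Ptges, Ptgis and Ptgds, the prostaglandin E2 receptors Ptger2, Ptger3 and Ptger4, and the degrading enzyme Hpgd. The set was chosen by comparing DPPIV+ with DPPIV- FAPs in these libraries, where Ptgs2 and its antisense neighbours were higher in DPPIV+ FAPs. That comparison is therefore given for the 10 genes as a description, without a p. Of the 10 genes, 7 reached the level needed for the tests, a level of 2 CPM (the count of a gene scaled to the size of its library) in 2 or more libraries, and Ptgds, Ptger2 and Ptger3 did not.

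Prostaglandins are lipid signals made where they act. Phospholipases free arachidonic acid from membranes, cyclooxygenases turn it into a common intermediate, and terminal synthases make from that intermediate prostaglandin E2, prostacyclin and the other end products, which act on G protein-coupled receptors of nearby cells. In muscle, prostaglandins are known as signals of injury, inflammation and repair, and fibroblasts are among the cells that make them.

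The 4 libraries came from 2 wild-type mice, and from each mouse DPPIV- FAPs and DPPIV+ FAPs were sorted from live CD31- CD45- Sca1+ cells. Both mice had 3 weeks of CSF1R inhibition, which removes resident macrophages, and then 3 days of regular diet, so no library came from an untreated muscle. Neither age nor sex is given for the 2 mice. The labels name the tibialis anterior as the source, whereas the protocol describes muscle from both hindlimbs. Each cell type thus has n = 2 mice, numbered 1 and 2 in the order of the animal numbers, and the libraries of 1 mouse are paired.

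The libraries held between 18240110 and 20879405 reads on genes, and 0 reads of a gene allow up to between 0.143 and 0.166 CPM, a limit that covers counting error only. The 4 marker genes of DPPIV+ FAPs all rose in DPPIV+ FAPs, among them Dpp4, which encodes the sorted protein. Of 7 FAP markers, all tested, 2 were higher in DPPIV+ FAPs (Cd34 and Ly6a, the gene of the sorted Sca1), 4 were lower (Pdgfra, Dcn, Col1a1 and Lum) and Col3a1 did not pass, with Pdgfra at 1564 CPM in DPPIV- and 1198 CPM in DPPIV+ FAPs. Markers of other cells were detected. The summed level of 10 macrophage markers was between 218 and 352 CPM in DPPIV- and between 202 and 228 CPM in DPPIV+ libraries, with 0 of the 9 tested higher and 5 lower in DPPIV+ FAPs, while Timd4 had 3 reads in 1 library and 0 in the others. The 6 mural cell markers summed to between 121 and 123 CPM in DPPIV- and between 51.0 and 63.4 CPM in DPPIV+ libraries, and 5 of them were lower. The 5 endothelial markers other than Tek summed to between 37.8 and 66.6 CPM in DPPIV- and between 34.4 and 40.0 CPM in DPPIV+ libraries. Of these, 4 were lower, while Tek itself rose from 168 to 446 CPM. The sums of the macrophage markers and of the 5 endothelial markers overlapped between the cell types. The 3 tenocyte markers were higher in DPPIV+ FAPs, with sums between 29.0 and 35.3 CPM in DPPIV- and between 60.0 and 105 CPM in DPPIV+ libraries. Of the 2 lymphatic endothelial markers tested, Pdpn was higher, with means of 237 CPM in DPPIV- and 302 CPM in DPPIV+ FAPs. The other, Flt4, did not pass the threshold, with 2.15 and 1.49 CPM. Of the Schwann cell markers 1 of 3 and of the perineurium markers 1 of 2 was lower, and of the 4 myofibre markers none passed the threshold. The tenocyte marker Scx, the perineurium marker Cldn1 and the mural marker Kcnj8 reached 2 CPM only in the cell type where they were high. They could enter the tests only through it. The 7 mast cell markers, whose cells make prostaglandins, summed to between 0.26 and 3.71 CPM with Ms4a2 at 0 reads in all libraries, and 3 satellite cell markers to between 0.78 and 1.38 CPM. The part of these cells in the results below was not tested. In bulk RNA, fewer cells that express a gene and less RNA per cell cannot be told apart.

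Ptgs2 and Ptgs2os are transcribed away from each other from neighbouring starts on chromosome 1 of the mouse genome (GRCm38). GENCODE release M21 places Ptgs2 (ENSMUSG00000032487.8) on the forward strand from 150100031 to 150108227 and Ptgs2os (ENSMUSG00000097028.2), a noncoding transcript, on the reverse strand from 150074873 to 150099963, so that their starts lie 68 bases apart. RefSeq starts Ptgs2os at 150099874, 157 bases before Ptgs2. Another noncoding gene, Ptgs2os2 (ENSMUSG00000097754.1, also known as lincRNA-Cox2), starts 64.9 kb downstream of the Ptgs2 start on the reverse strand. The 250 bases before the RefSeq start of Ptgs2 (chr1:150099781-150100030) are shown because they hold the starts of Ptgs2os, followed by the same window of Ptgs2os2 (chr1:150164949-150165198), of the other cyclooxygenase Ptgs1 (chr2:36230176-36230425), and of Ptger4 (chr15:5244188-5244437), a receptor lower in DPPIV+ FAPs. All are RefSeq sequences of GRCm38.p6, written from 5′ to 3′ on the strand of the gene, with matches to the motifs listed after them in capitals.
Ptgs2: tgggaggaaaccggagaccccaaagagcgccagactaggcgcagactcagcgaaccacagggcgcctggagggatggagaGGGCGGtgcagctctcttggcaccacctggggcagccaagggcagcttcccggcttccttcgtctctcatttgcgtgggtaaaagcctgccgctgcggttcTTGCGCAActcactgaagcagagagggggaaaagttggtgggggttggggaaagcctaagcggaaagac
Ptgs2os2: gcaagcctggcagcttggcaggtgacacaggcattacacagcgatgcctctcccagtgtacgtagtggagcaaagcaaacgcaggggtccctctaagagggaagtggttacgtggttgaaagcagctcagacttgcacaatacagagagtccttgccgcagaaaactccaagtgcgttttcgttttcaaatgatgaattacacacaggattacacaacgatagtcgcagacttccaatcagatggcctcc
Ptgs1: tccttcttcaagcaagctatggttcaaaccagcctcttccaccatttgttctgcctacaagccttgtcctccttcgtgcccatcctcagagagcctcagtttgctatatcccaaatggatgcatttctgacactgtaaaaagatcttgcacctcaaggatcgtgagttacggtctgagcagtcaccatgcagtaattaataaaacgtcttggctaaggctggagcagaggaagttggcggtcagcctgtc
Ptger4: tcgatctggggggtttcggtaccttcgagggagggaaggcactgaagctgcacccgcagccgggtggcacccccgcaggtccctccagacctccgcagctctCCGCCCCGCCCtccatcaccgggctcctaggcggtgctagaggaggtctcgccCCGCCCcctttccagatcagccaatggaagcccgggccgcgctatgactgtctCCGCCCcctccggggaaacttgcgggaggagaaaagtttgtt

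The motifs searched on both strands were the E-box CACGTG, the core of the cAMP response element ACGTCA and its full form TGACGTCA, the C/EBP palindrome TTGCGCAA, the AP-1 site TGANTCA, the TATA box TATAAA, the GC box GGGCGG and, without capitals in the sequences, the CCAAT box CCAAT. A window was given for 9 of the 10 genes and for Ptgs2os2. In the Ptgs2 window the C/EBP palindrome, which 0.164% of 32851 mouse promoter windows of the same length hold, begins 69 bases before the start. The GC box, held by 32.7% of windows, begins 170 bases before it. The window of Ptgs2os, which runs past the start of Ptgs2, holds the same palindrome. It also holds an E-box (6.02% of windows) and a core of the cAMP response element (6.47%) that overlap each other. The E-box and the core begin 178 and 174 bases before the start of Ptgs2os. Both lie past the start of Ptgs2, so the window of Ptgs2 does not cover them. The palindrome, the E-box and the core occur together in 2 of the 32851 windows. The Ptgs2os window is itself among those 2, and no other combination was counted, so this share does not measure how unusual the window is. Ptger4 had 4 GC boxes, of which a pair overlaps, Ptger3 had 3, Ptges 2 and Hpgd 1. The window of Ptger4 and those of Ptger2 and Ptgs2os2 held a CCAAT box (33.8%), and that of Ptgds an AP-1 site (6.75%). No full cAMP response element (1.55% of windows) and no TATA box (12.4%) was found in the windows, and that of Ptgs1 held none of the motifs. These matches describe letters and show no binding.

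Cyclooxygenase transcripts were more abundant in DPPIV+ FAPs in both mice. Ptgs2 encodes the inducible cyclooxygenase and had 258 and 205 CPM in DPPIV- FAPs of mouse 1 and mouse 2, against 681 and 385 CPM in DPPIV+ FAPs. All DPPIV+ libraries were above all DPPIV- libraries, but the DPPIV+ libraries of the mice lay far apart. The fitted log2 fold change (log2FC, DPPIV+ over DPPIV-) was 1.16, with a standard error (SE) of 0.07 and a ratio of 2.64-fold in mouse 1 and 1.88-fold in mouse 2. That SE, like others of the same fit below, takes its spread from genes of like abundance and not from the gene's own values in the mice. For Ptgs2 it was 0.25 by DESeq2 and 0.25 in edgeR without the mouse term. The log2FC rests on which DPPIV+ library is used, since in fits without the mouse term it was 0.73 without that of mouse 1 and 1.56 without that of mouse 2. Ptgs1, the constitutive cyclooxygenase, lies on the forward strand of chromosome 2 from 36230426 to 36252272. It had 16.1 and 15.8 CPM in DPPIV- FAPs and 42.4 and 34.3 CPM in DPPIV+ FAPs. Its groups did not overlap either, and its log2FC was 1.27 (SE 0.10). Per kilobase of exon, Ptgs2 exceeded Ptgs1 by between 9.51 and 13.6-fold in every library, and the ratio of the isoenzymes overlapped between the cell types.

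**Figure D1:**
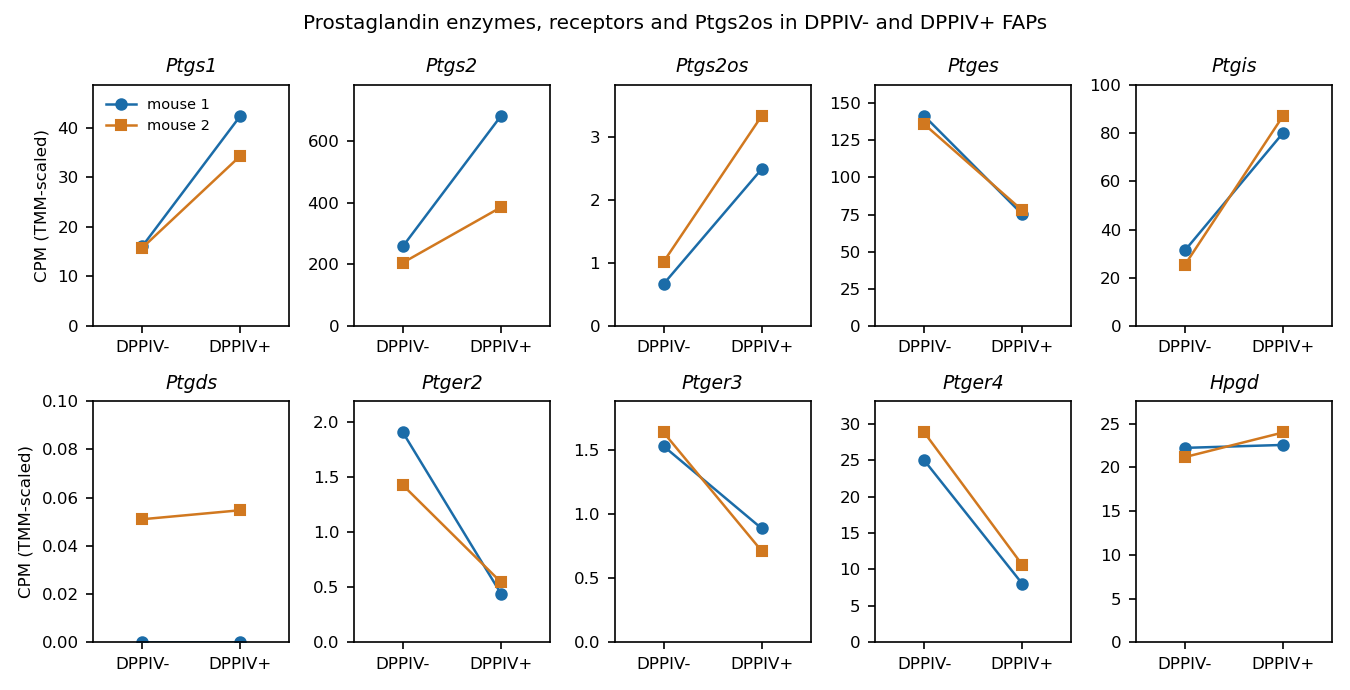
CPM on TMM-scaled library sizes (linear axes from 0, a scale of its own for each gene) of the 10 genes in DPPIV- and DPPIV+ FAPs, with a line for each mouse. Ptgs1, Ptgs2, Ptgs2os and Ptgis rise in both mice, Ptges, Ptger2, Ptger3 and Ptger4 go down, Hpgd stays between 21.2 and 23.98 CPM, and Ptgds has at most 1 read in a library.

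The antisense neighbours were higher in DPPIV+ FAPs as well, at far lower levels than Ptgs2. Ptgs2os had 14 and 20 reads in the DPPIV- libraries, mouse 1 first, and 45 and 61 in the DPPIV+ libraries, a log2FC of 1.79 (SE 0.31, and 0.61 by DESeq2). It reached 2 CPM in the DPPIV+ libraries only, so it could enter the tests only through the cell type in which it was high. Per kilobase of exon, Ptgs2 was between 109 and 366 times as abundant as Ptgs2os. Ptgs2os2 had 47 and 24 reads in DPPIV- FAPs and 98 and 65 reads in DPPIV+ FAPs, a log2FC of 1.38 (SE 0.26). Both noncoding genes had more reads in DPPIV+ FAPs of each mouse, without overlap between the cell types. By GENCODE M21, neither Ptgs2os nor Ptgs2os2 shares exon bases with Ptgs2. The annotation used for the counting is not given in the sources used here. Whether reads of 1 of these genes entered the count of another was not tested.

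Genes farther from Ptgs2 had log2FCs near 0 or below it. Pla2g4a encodes the cytosolic phospholipase A2 that supplies arachidonic acid to cyclooxygenases, and its start lies 138.7 kb from that of Ptgs2. It had 73.2 and 72.5 CPM in DPPIV- FAPs and 76.4 and 75.2 CPM in DPPIV+ FAPs (log2FC 0.06, SE 0.07, adjusted p = 0.583). Every adjusted p is from edgeR's quasi-likelihood F test, corrected by the method of Benjamini and Hochberg over all genes tested, unless named otherwise. The spread in that test came from genes of like abundance, so its p does not measure a gene's own spread among the mice. On the other side, Tpr, a nuclear pore gene 292.8 kb away, did not pass the threshold (log2FC 0.10, adjusted p = 0.243). Prg4, which encodes the lubricant lubricin and starts 366 kb away, fell by 0.34 on the log2 scale (adjusted p = 4.03e-06), from 502 and 710 CPM in DPPIV- FAPs to 397 and 558 CPM in DPPIV+ FAPs of the same mouse. Pdc and 2310030A07Rik, the other genes of the table within 500 kb, had 3 reads and 1 read over all libraries.

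**Figure D2:**
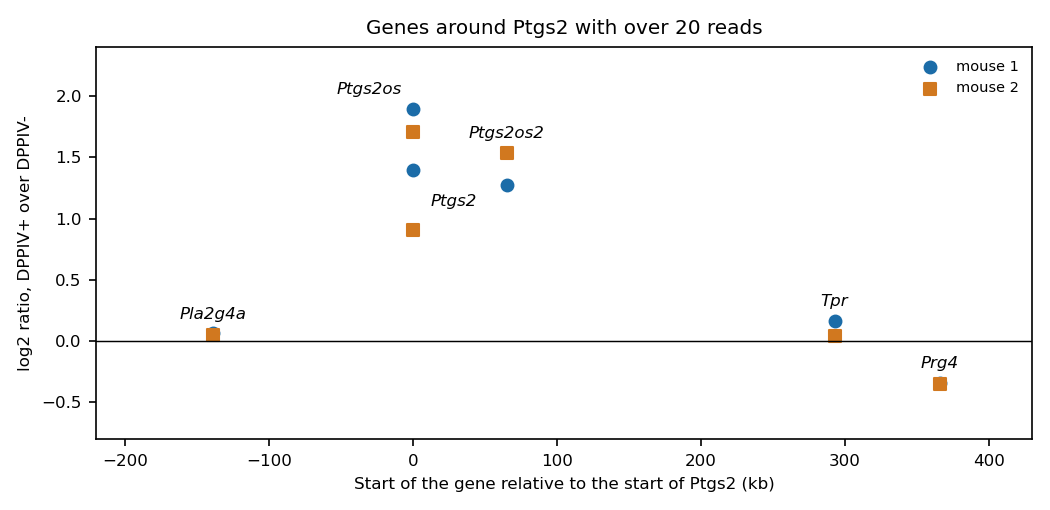
Log2 ratio of DPPIV+ over DPPIV- FAPs in each mouse (vertical axis) for genes with over 20 reads, against the distance of their start from that of Ptgs2 in kb (horizontal axis). Ptgs2, Ptgs2os and Ptgs2os2 lie above 0.9 in both mice, whereas Pla2g4a, Tpr and Prg4 lie between -0.35 and 0.17.

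The terminal synthases went in opposite directions. Ptges (chromosome 2, 30889471 to 30929863, reverse strand) encodes the inducible microsomal prostaglandin E synthase and had 141 and 136 CPM in DPPIV- FAPs and 75.2 and 77.8 CPM in DPPIV+ FAPs. Its log2FC was -0.86 (SE 0.07). Ptgis (chromosome 2, 167191805 to 167240604, reverse strand), the prostacyclin synthase, had 31.4 and 25.4 CPM in DPPIV- FAPs and 80.1 and 87.2 CPM in the DPPIV+ libraries, for a log2FC of 1.56 (SE 0.07). The groups did not overlap for either gene, and the mice gave ratios of 2.55 and 3.43-fold for Ptgis and of 1.88 and 1.75-fold toward DPPIV- FAPs for Ptges. Per kilobase of exon, Ptges was 2.94 and 3.49 times as abundant as Ptgis in DPPIV- FAPs and 0.612 and 0.583 times as abundant in DPPIV+ FAPs, so their order was reversed. Ptgds, which encodes the lipocalin-type prostaglandin D synthase, had 1 read in each library of mouse 2 and 0 in those of mouse 1, and no fold is given.

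The receptor transcripts were lower in DPPIV+ FAPs. Ptger4 (chromosome 15, 5206661 to 5244187, reverse strand) encodes EP4, a receptor that raises cAMP, and had 24.9 and 28.8 CPM in DPPIV- FAPs and 8.04 and 10.6 CPM in DPPIV+ FAPs. The groups were well apart, with a log2FC of -1.53 (SE 0.12). Ptger2, whose product EP2 also raises cAMP, had 40 and 28 reads in DPPIV- FAPs and 8 and 10 reads in DPPIV+ FAPs. Ptger3, whose product EP3 mainly lowers cAMP, had 32 and 32 reads against 16 and 13 reads. Both lay under 2 CPM in every library, and their DPPIV- libraries were 4.30 and 2.61 times as high for Ptger2 and 1.72 and 2.29 times as high for Ptger3 in mouse 1 and mouse 2. Of the exon bases of Ptger4, 82 are shared with Ttc33 and 1015 with Gm15937, both on the opposite strand. Gm15937 was not among the genes counted. Whether the counting used strand is not given in the sources used here, and the part of such reads in Ptger4 was not tested.

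Hpgd (chromosome 8, 56294585 to 56321043, forward strand) encodes the dehydrogenase that starts the breakdown of prostaglandins. It had 22.2 and 21.2 CPM in DPPIV- FAPs and 22.6 and 23.98 CPM in DPPIV+ FAPs. Its DPPIV+ libraries were above its DPPIV- libraries by a small margin (log2FC 0.10, SE 0.10), with 1.02-fold in mouse 1 and 1.13-fold in mouse 2. Among the 7 genes tested, 4 passed the threshold of 0.05 toward DPPIV+ FAPs (Ptgs1, Ptgs2, Ptgs2os and Ptgis), 2 toward DPPIV- FAPs (Ptges and Ptger4), and Hpgd did not pass. Over all 11588 genes tested, 33.0% passed, 15.9% toward DPPIV+ and 17.2% toward DPPIV- FAPs. The groups did not overlap for 9 of the 10 genes, all but Ptgds, beside 56.3% of all genes tested. Since this comparison chose the genes, their counts are not read against these shares.

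Compared per kilobase of exon, Ptgs2 was the most abundant of the 10 genes in both cell types, with 50.6 ± 8.21 CPM per kilobase (SD, n = 2) in DPPIV- and 116 ± 45.7 in DPPIV+ FAPs. In DPPIV- FAPs it was followed by Ptges with 35.2 ± 1.01, Hpgd with 12.9 ± 0.441, Ptgis with 11.1 ± 1.65, Ptgs1 with 4.10 ± 0.0558 and Ptger4 with 4.04 ± 0.408. In DPPIV+ FAPs the order was Ptgis with 32.6 ± 1.95, Ptges with 19.5 ± 0.475, Hpgd with 13.8 ± 0.598, Ptgs1 with 9.88 ± 1.47 and Ptger4 with 1.40 ± 0.275. The other genes lay under 0.7 CPM per kilobase. In DPPIV- FAPs the values of the mice overlapped for the neighbours Ptgs1 and Ptger4 and for Ptger2 and Ptger3, and other neighbours in either order did not overlap. Among the 23334 genes with a length, Ptgs2 was at the 96.9th percentile in DPPIV- and the 98.7th in DPPIV+ FAPs.

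The difference between the mice was not used to choose the genes. Each side of it is 1 animal, whose libraries are different cell types, so its p compares these 2 mice, with a spread taken from genes of like abundance, and does not cover variation among mice. Of the 7 genes, Ptgs2 was lower in mouse 2, by a log2FC of -0.58 (SE 0.07, adjusted p = 6.93e-15), and the others did not pass the threshold. Over all genes, 8.98% passed for the mouse term and 4.51% were lower in mouse 2. Ptgs2 was lower in mouse 2 in both cell types, from 258 to 205 CPM in DPPIV- and from 681 to 385 CPM in DPPIV+ FAPs. Over 7 settings its adjusted p was between 6.93e-15 and 0.515, the latter by the Wald test of DESeq2, so the call depends on the test. For Ptgs1, Ptgs2os, Ptges, Ptgis, Ptger4 and Hpgd, the log2 difference between the mice was between -0.19 and 0.48.

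The remaining genes of the pathway were taken as whole steps, 37 genes in 4 lists. Of these, 18 were tested, 5 were higher and 4 lower in DPPIV+ FAPs (3 and 4 where 3 libraries had to reach 2 CPM), and their median log2FC was 0.04, beside 0.00 over all genes tested. Among the phospholipases, 5 of 17 genes were tested and 1 passed. Pla2g5, a secreted phospholipase A2, had 21 and 19 reads in DPPIV- FAPs and 54 and 113 reads in DPPIV+ FAPs, a log2FC of 2.17 (SE 0.29). It reached 2 CPM in the DPPIV+ libraries only and could enter the tests only through them, so its p is not given, and its log2FC was 2.64 without the DPPIV+ library of mouse 1 and 1.60 without that of mouse 2, in fits without the mouse term. Pla2g4a, Pla2g6, Pla2g2e and Pla2g12a did not pass, with log2FCs between -0.05 and 0.49.

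Of 8 other synthases, 5 were tested and 2 passed, both toward DPPIV+ FAPs. Akr1c18, an aldo-keto reductase that can make prostaglandin F2α and also inactivates progesterone, had 8 and 0 reads in DPPIV- FAPs and 111 and 46 reads in DPPIV+ FAPs. Like Pla2g5, it entered the tests only through the DPPIV+ libraries, and its p is not given. Its log2FC of 4.47 rests on the 8 reads of 1 library, since it was 9.34 without the DPPIV- library of mouse 1 and 3.48 without that of mouse 2, in fits without the mouse term, and 5.44 (SE 1.64) by DESeq2. It belongs to a family of similar genes, and reads could be shared with them. Fam213b, another prostaglandin F synthase, rose from 37 and 49 to 89 and 71 reads (log2FC 1.05, SE 0.25, adjusted p = 1.32e-04), but its adjusted p was 0.122 by the Wald test of DESeq2 and between 1.18e-04 and 0.201 over 12 settings. Ptges2, Ptges3 and Cbr1 did not pass, with log2FCs between -0.09 and 0.16. Unlike Ptges, the other prostaglandin E synthases Ptges2 and Ptges3 thus lacked a call, with means of 12.3 and 11.6 CPM for Ptges2 and of 52.5 and 50.9 CPM for Ptges3 in DPPIV- and DPPIV+ FAPs. Hpgds, which makes prostaglandin D2, had between 6 and 10 reads, and the thromboxane synthase Tbxas1 between 19 and 53 reads.

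Of 6 other receptors, Ptgir and Ptgfr were tested and both fell. Ptgir encodes the prostacyclin receptor and had 77.3 and 64.4 CPM in DPPIV- FAPs and 25.2 and 22.2 CPM in DPPIV+ FAPs (log2FC -1.58, SE 0.08, adjusted p = 6.84e-87). Ptgfr, the prostaglandin F receptor, had 45.7 and 30.9 CPM in DPPIV- FAPs and 19.3 and 14.4 CPM in DPPIV+ FAPs (log2FC -1.18, SE 0.10, adjusted p = 1.38e-33). For Ptgfr the adjusted p was 6.33e-10 by the Wald test of DESeq2 and 0.00644 without the mouse term in edgeR. Ptgir and Ptgfr were also lower in mouse 2 than in mouse 1, with log2 differences of -0.23 (adjusted p = 0.0325) and -0.51 (adjusted p = 3.97e-06). Ptgis and Ptgir, the synthase and the receptor of prostacyclin, therefore differed in opposite directions. Per kilobase of exon, Ptgis was 0.528 and 0.512 times as abundant as Ptgir in DPPIV- FAPs and 4.13 and 5.11 times as abundant in DPPIV+ FAPs.

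Under the filter, Ptger1, the gene of EP1, had 37 and 39 reads in DPPIV- FAPs and 11 and 7 reads in DPPIV+ FAPs, and the thromboxane receptor gene Tbxa2r had 26 and 30 against 7 and 8 reads. Without a filter on low counts, their adjusted p was 4.70e-04 and 0.0105. The reads of Ptger1 are uncertain, since the strand setting of the counting is not given in the sources used here. Ptgdr and Ptgdr2, the receptors of prostaglandin D2, had 2 reads each, all in DPPIV- libraries. Of the 9 prostanoid receptor genes, 7 had over 10 reads, and each of the 7 was lower in DPPIV+ FAPs in both mice, by between 1.72 and 5.19-fold, without overlap of the groups. Ptger2, Ptger3 and Ptger4 among them belong to the chosen set. Among all genes tested, 36.8% were lower in both mice, and the groups did not overlap for 56.3%. Ptger1, Ptger2, Ptger3 and Tbxa2r lay under the filter that those genes passed. For both reasons the 7 receptors are not read against these shares. The receptors summed to 143 ± 16.7 CPM (SD, n = 2) in DPPIV- and 52.1 ± 3.996 CPM in DPPIV+ FAPs. Mural cell markers, whose cells also carry the prostacyclin receptor, were lower in DPPIV+ FAPs as well, by the sums given above, and their part in the receptor levels was not tested.

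**Figure D3:**
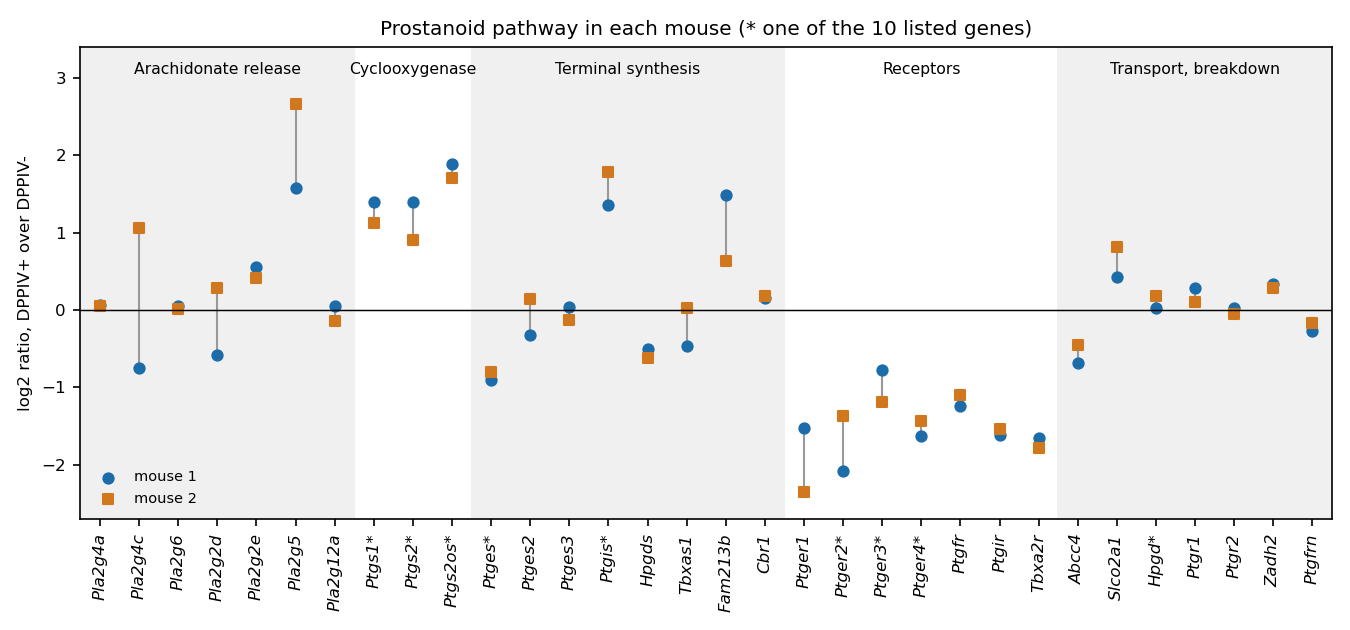
Log2 ratio of DPPIV+ over DPPIV- FAPs in mouse 1 (circles) and mouse 2 (squares) for genes of the pathway with a read in every library and over 20 reads, in order of the steps. All 7 receptors lie below 0 in both mice, the cyclooxygenases, Ptgis, Pla2g5 and Fam213b lie above 0, and the synthases Ptges and Hpgds lie below 0. Akr1c18, with 0 reads in a library, is not drawn.

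Of 6 genes for export, uptake and breakdown, all were tested, 2 rose and 2 fell. Slco2a1, the transporter that takes prostaglandins into cells, rose from 27.0 and 22.2 to 36.1 and 39.0 CPM (log2FC 0.61, adjusted p = 3.62e-11). Abcc4, an exporter of prostaglandin E2 and of cyclic nucleotides, fell from 25.5 and 23.0 to 15.9 and 16.9 CPM (log2FC -0.57, adjusted p = 8.77e-07). Zadh2, a reductase of prostaglandin metabolites, rose by a log2FC of 0.31 (adjusted p = 1.49e-05). Ptgfrn, a membrane protein named for its inhibition of the prostaglandin F receptor, fell from 878 to 755 CPM on average (log2FC -0.22, adjusted p = 0.00705), but did not pass by the Wald test of DESeq2 (adjusted p = 0.0703) or without the mouse term in edgeR (adjusted p = 0.203), and its adjusted p was between 0.00116 and 0.701 over 12 settings. Ptgr1 and Ptgr2, which reduce the oxidised metabolites that Hpgd makes, did not pass.

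The lipoxygenase branch, which turns arachidonic acid into leukotrienes and related lipids, was little expressed. Of 14 genes 3 were tested, and 0 passed toward DPPIV+ and 2 toward DPPIV- FAPs. Ephx2, the epoxide hydrolase that degrades epoxy lipids, had 98 and 70 against 21 and 13 reads (log2FC -2.13), and entered the tests only through the DPPIV- libraries, so its p is not given. Alox5ap, which leukotriene synthesis in myeloid cells requires, had 178 and 89 against 98 and 62 reads (log2FC -0.55, adjusted p = 0.0258). Its groups overlapped, and with DESeq2 or without the mouse term 1 of the 14 genes was called in place of 2. Summed macrophage markers fell from 352 to 228 CPM in mouse 1 and from 218 to 202 CPM in mouse 2. These sums overlapped between the cell types, and the part of macrophages in Alox5ap was not tested. Lta4h had a log2FC of 0.04 (adjusted p = 0.750).

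Ptgs2 is known as an early response gene, and lists of such genes were set beside it because the cells were freed with enzymes at 37°C before the sort. The 22 immediate early genes went in both directions, since 7 rose and 12 fell in DPPIV+ FAPs, with a median log2FC of -0.23. Over all genes tested, 15.9% rose and 17.2% fell. The part of the enzyme step in these levels was not tested. The most abundant of the 22 were Egr1 (log2FC -0.37, adjusted p = 5.91e-06), Fos (-0.31, adjusted p = 1.89e-04), Jun (-0.45, adjusted p = 5.66e-09) and Zfp36 (0.12, adjusted p = 0.221). The sum of the list was between 16405 and 17910 CPM in DPPIV- and between 15671 and 16328 CPM in DPPIV+ libraries. Fosl1, named here after its value was seen, had the largest log2FC of the list, 1.68, and differed between the mice with ratios of 2.92 and 0.71 on the log2 scale.

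Of the NF-kB target genes, 11 of 12 were tested, 3 rose and 2 fell, with a median log2FC of 0.10. Nfkbia, the inhibitor that NF-kB induces, rose by 0.62 (adjusted p = 7.09e-19) and Cxcl1, a chemokine for neutrophils, by 0.24 (adjusted p = 0.00178), although its log2 ratio was 0.55 in mouse 1 and -0.09 in mouse 2. Il6, the third of those that rose, also had ratios of opposite sign in the mice, 0.66 and -0.16. Nfkb1 did not pass (0.10, adjusted p = 0.296), and the adhesion molecule gene Icam1 fell by 1.32 on the log2 scale (adjusted p = 2.15e-81). Between the mice, 4 of the 11 were lower in mouse 2 and 0 higher: Cxcl1 (-0.35), Il6 (-0.55), Cxcl2 (-0.98) and Tnfaip3 (-0.36), of which the last 3 are named after their values were seen. Ptgs2 was lower in mouse 2 as well. Summed macrophage markers were also lower in mouse 2, in DPPIV- FAPs with 352 CPM in mouse 1 and 218 CPM in mouse 2, and in DPPIV+ FAPs with 228 and 202 CPM. Of the markers tested, 4 of 9 for macrophages and 5 of 5 for endothelium other than Tek were lower in mouse 2, and 3 of 3 for tenocytes and 4 of 4 for myofibres were higher. Their part in the difference between the mice was not tested. Of the cAMP response genes, 6 of 7 were tested, 0 rose and 3 fell, with a median of -0.53. Pde4b, a phosphodiesterase that breaks down cAMP, fell by 1.21 (adjusted p = 7.54e-46) and Rgs2, a regulator of G protein signalling, by 0.97 (adjusted p = 3.89e-09), while Sik1 (-0.08, adjusted p = 0.373) and Per1 (0.11, adjusted p = 0.196) did not pass.

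**Figure D4:**
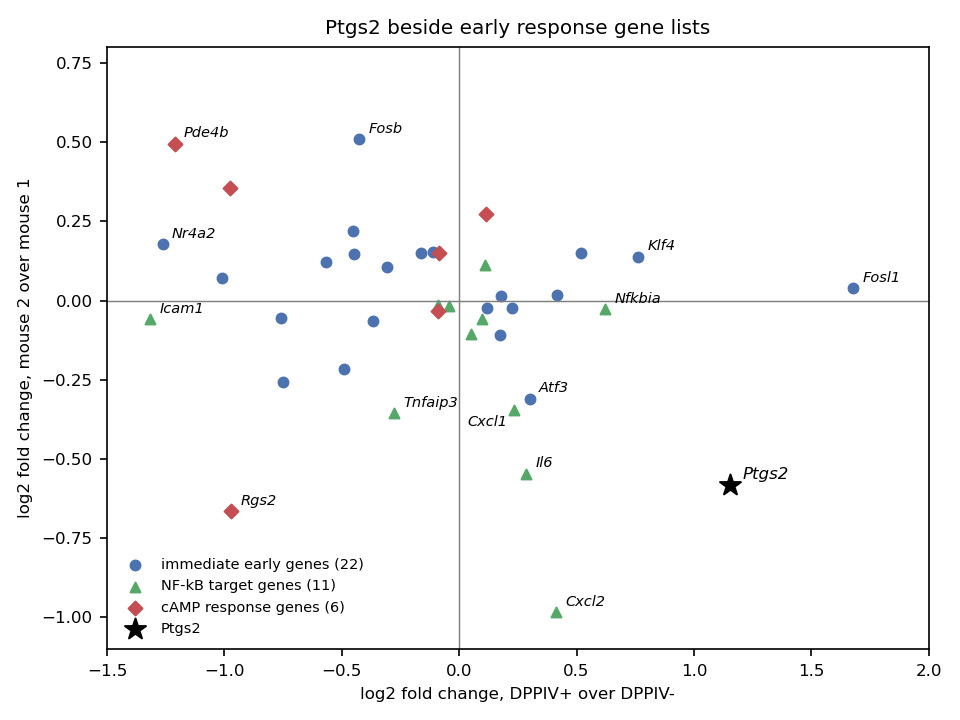
Log2 fold change of DPPIV+ over DPPIV- FAPs (horizontal axis) and of mouse 2 over mouse 1 (vertical axis) for immediate early, NF-kB target and cAMP response genes that were tested, with Ptgs2 as a star. Ptgs2, at 1.16 and -0.58, lies to the right of all of them but Fosl1, and Cxcl2 and Rgs2 lie below it.

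The 5 genes whose values over the 4 libraries were most like those of Ptgs2 were Phf11b, Plac8, Irf7, Emx2os and Fras1. Likeness was the root mean square distance of log2 CPM over 4 libraries, after centring each gene on its mean, and was between 0.07 and 0.14 log2 units. Their log2FCs, between 0.92 and 1.29, follow from this choice, which used the same libraries. Ptgs2os and Ptgs2os2 were not among the 5.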

How the data were processed

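RNA of sorted DPPIV- and DPPIV+ FAPs was sequenced in paired ends. The authors used bcl2fastq2 2.20, alignment by STAR to mm10 and RnaReadCounter, and deposited unnormalized read counts, 1 row for each gene symbol. The submitters' processing notes also list Bowtie. Annotation release and strand setting are not given in the sources used here, and the labels and the paper name different stranded kits.

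Counts were analysed with edgeR 4.0.16 in R 4.3.3. A gene entered the tests if 2 or more libraries reached 2 CPM, which left 11588 genes. Library sizes were scaled by TMM, and a two-sided quasi-likelihood F test with terms for mouse and cell type, as in the study's model, was adjusted by Benjamini-Hochberg (threshold 0.05). Prior degrees of freedom were infinite, so the spread was taken from genes of like abundance rather than from each gene. The SE is the log2FC over the square root of F. Ratios per mouse used a prior count of 0.125. Levels per kilobase used the exon union of GENCODE M21 (23334 symbols matched), and promoter windows came from RefSeq. The libraries of 1 mouse were paired because their titles name the same animal, and the mouse differences in the cell types had a correlation of 0.415 across genes. Each cell type had 2 animals, whose counts differed by 12.8 and 9.50 times the counting variance (chi-square per degree of freedom). DESeq2 1.42.0, other scalings and filters, no mouse term and left-out libraries were alternatives. Genes, lists and tests were chosen with earlier results of these data known. The genes named were the 10, every tested gene of the 4 pathway lists, up to 4 of the most abundant in other lists, those within 500 kb of Ptgs2, and the 5 most like it.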

Additional observations from a re-analysis of the deposited data

How the results depend on the processing

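Over all genes, 3826 were called between the cell types, against 1918 with DESeq2, 2120 without the replicate block for mouse, and with 1 library left out 2139 or 2035 (DPPIV- of mouse 1 or mouse 2) and 1364 or 1553 (DPPIV+ of mouse 1 or mouse 2), in fits without the mouse term in which the lone library was assumed to vary like the other pair. Of the 10 genes 6 were called, and between 5 and 7 under the alternatives that kept all libraries. The comparison of the cell types chose the 10 genes, so these counts describe the processing only. Of the 37 other prostanoid genes 9 were called, and between 5 and 7 with a library left out. Of the leukotriene genes 2 were called, against 1 with DESeq2, 1 without the replicate block, 1 with 2 CPM in 3 libraries, 4 without a filter, and 1 to 2 with a library left out. Of the immediate early, NF-kB and cAMP genes 27 were called, and with the same libraries left out 18, 16, 12 and 14. Between the mice 1041 genes were called, against 110 with DESeq2, and of the 10 genes 1 was called, against 0 with DESeq2. The cause of these differences was not tested.

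The log2FC of the 7 genes tested kept their direction in 90 of 90 alternatives. The alternatives reuse the libraries and the comparison that chose these genes, so the kept directions are no support for them. The log2FC moved by more than the spread in 8 alternatives, all with a library left out, for Ptgs2, Ptgs2os and Ptger4. Among the 18 other prostanoid genes tested, 15 of the values under alternatives no longer passed, for Fam213b, Ptgfrn, Zadh2, Abcc4 and Slco2a1. Akr1c18, with 0 reads in a DPPIV- library, had a log2 ratio of 8.63 in mouse 2 alone. Leaving out 1 mouse left no residual degree of freedom and gave values only. Genes with under about 10 reads a library, such as Ptgds, Ptgdr and Ptgdr2, could not be compared at this depth.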
